A study of Mus musculus with 8 samples.

Results

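The genes described here are 48 members of the signalling pathway that lies directly below the T cell receptor, taken as a list by gene symbol out of 19805 symbols in the deposited tables. They were followed in mouse CD8 T cells from spleen and in group 2 innate lymphoid cells (ILC2s) from lung, both from wild-type animals. The cells were kept for 3 days in co-culture at a ratio of 5:1 or each type without the other, then isolated by flow cytometry and profiled by bulk RNA sequencing. There were 4 groups of 2 libraries each: co-cultured CD8 T cells, CD8 T cells cultured alone, co-cultured ILC2s and ILC2s cultured alone. The labels call the cells cultured alone untreated, and name no antigen, cytokine or stimulus for any group. Nothing in them says whether the libraries of a group came from separate animals or cultures, so p-values measure only the spread between these libraries, which may be technical. All 48 genes were in both tables and all 48 passed the filter on low counts in every fit.

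When a T cell receptor binds its peptide on MHC, the Src family kinase LCK phosphorylates the receptor's signalling chains, the kinase ZAP70 docks there, and ZAP70 phosphorylates the membrane adaptor LAT. LAT gathers adaptors, phospholipase C gamma and exchange factors, and the signal divides into a calcium branch, which acts through calcineurin and the NFAT transcription factors, a Ras and MAP kinase branch, and a branch through protein kinase C theta and a complex that holds BCL10 and MALT1 to NF-kB. Phosphatases, ubiquitin ligases and diacylglycerol kinases limit each step. ILC2s are tissue lymphocytes that carry no T cell receptor and make type 2 cytokines. They nevertheless use NFAT and NF-kB, below receptors for alarmins and other mediators.

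Library totals ran from 48072595 to 67076905 counts, and the lowest count of any member in any library was 119. Levels are given as CPM (counts scaled to the library total), and a pair of values for a group is its 2 libraries in replicate order. The log2 change is that of edgeR's quasi-likelihood model, which also scales for library composition, and is not always the same as a ratio of CPM values. A gene was called where the Benjamini-Hochberg adjusted p over all genes tested was under 0.05. The T cell label of the CD8 libraries and the ILC2 label of the ILC2 libraries were checked against marker genes. T cell receptor and coreceptor genes (10 of 10 in the tables) summed to 6450 and 6450 CPM in co-cultured CD8 T cells, against 5009 and 5078 CPM in those cultured alone. ILC2 markers (15 of 18 in the table) summed to 1404 and 1453 CPM in co-cultured CD8 T cells, against 1534 and 1534 CPM alone. These markers differed widely in co-cultured CD8 T cells. Mean CPM was 643 for Il2ra, 219 for Id2 and 205 for Il7r, but 0.541 for Il1rl1 and 0.675 for Il5. The sum is therefore no measure of ILC2 content in the CD8 libraries. The 18 ILC2 markers summed to 12999 and 12783 CPM in co-cultured ILC2s, against 5318 and 5303 CPM in ILC2s labelled alone. Other lineages were present in the libraries labelled as ILC2s alone. The T cell genes summed to 228 and 267 CPM in co-cultured ILC2s, against 1702 and 1585 CPM in ILC2s labelled alone, and all 10 were called lower. Macrophage markers (5 of 10 in the table, all 5 lower) summed to 17.0 and 21.1 CPM in co-cultured ILC2s, against 313 and 319 CPM in those labelled alone. Stromal markers (9 of 10 in the table, 8 lower) summed to 19.2 and 23.2 CPM co-cultured, against 7963 and 8651 CPM labelled alone. In bulk RNA, fewer cells of a type and less RNA per cell cannot be told apart, and the part of these other cells in the ILC2 results was not tested.

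Several members are known targets of NF-kB as well as parts of its pathway, and their promoters are shown because the transcripts of 3 of them, Nfkbia, Nfkb2 and Rel, were called lower in co-cultured cells of both types while Tnfaip3 was called higher in both. The 250 bases before each start were taken from RefSeq promoters of GRCm38.p6, in which 36 of the 48 members matched. Capitals mark matches to the kappa B motif, searched on both strands, with overlapping matches joined. The motif was found in 5 of the 36 members (Bcl10, Tnfaip3, Rel, Nfkbia and Nfkb2) and in 7.01% of 27025 genes. The AP-1 motif TGANTCA, searched on both strands, was found in 1 of the 36 members (Tnfaip3) and in 6.87% of all genes. A match is a description of letters in this window and no evidence of binding. Nfkbia lies at chr12:55492648-55492897 (minus strand), Nfkb2 at chr19:46304487-46304736 (plus strand), Rel at chr11:23770970-23771219 (minus strand) and Tnfaip3 at chr10:19015411-19015660 (minus strand).
Nfkbia: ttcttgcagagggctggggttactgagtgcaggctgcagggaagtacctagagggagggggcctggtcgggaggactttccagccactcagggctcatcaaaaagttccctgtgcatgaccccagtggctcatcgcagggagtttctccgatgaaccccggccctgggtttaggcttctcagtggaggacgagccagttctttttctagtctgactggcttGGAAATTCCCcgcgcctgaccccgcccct
Nfkb2: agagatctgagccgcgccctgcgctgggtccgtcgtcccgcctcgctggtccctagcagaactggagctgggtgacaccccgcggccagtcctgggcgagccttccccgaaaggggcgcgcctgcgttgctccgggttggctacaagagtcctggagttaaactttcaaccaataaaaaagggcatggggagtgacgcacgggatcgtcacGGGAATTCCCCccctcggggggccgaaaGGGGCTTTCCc
Rel: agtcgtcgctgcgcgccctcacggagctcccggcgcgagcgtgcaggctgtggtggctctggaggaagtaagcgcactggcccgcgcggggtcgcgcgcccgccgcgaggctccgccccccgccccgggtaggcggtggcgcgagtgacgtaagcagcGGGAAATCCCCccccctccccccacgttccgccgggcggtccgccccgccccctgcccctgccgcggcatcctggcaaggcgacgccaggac
Tnfaip3: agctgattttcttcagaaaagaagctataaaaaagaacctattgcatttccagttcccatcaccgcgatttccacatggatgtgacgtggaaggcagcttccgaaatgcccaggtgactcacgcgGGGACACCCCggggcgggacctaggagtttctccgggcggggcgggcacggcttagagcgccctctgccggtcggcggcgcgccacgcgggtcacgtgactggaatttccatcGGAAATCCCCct
The match nearest the start lay 29 bases before it in Nfkbia, 11 in Nfkb2, 91 in Rel and 12 in Tnfaip3. The Nfkb2 window lies within the gene's RefSeq span (46300994 to 46312400), so the start used there is not the outermost one.

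Levels of different members were compared per kilobase of exon (CPM per kb). In CD8 T cells Lck stood highest in both cultures, at 396 ± 30.2 CPM per kb co-cultured and 343 ± 6.49 CPM per kb alone (SD, n = 2). It was followed by Ptpn6, which encodes a tyrosine phosphatase, at 201 ± 9.04 CPM per kb co-cultured and 212 ± 21.4 CPM per kb alone. Sos1, a Ras exchange factor, was the lowest, at 1.20 ± 0.052 CPM per kb co-cultured and 0.963 ± 0.047 CPM per kb alone. In co-cultured ILC2s the order was different. Icos led at 251 ± 3.98 CPM per kb, before Tnfaip3 at 137 ± 12.5 CPM per kb and Nfkbia at 119 ± 15.7 CPM per kb, and Cd5 was lowest at 0.553 ± 0.071 CPM per kb. In ILC2s labelled alone Nfkbia led at 279 ± 0.057 CPM per kb and Lck came next at 105 ± 0.366 CPM per kb.

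In CD8 T cells, the kinases Txk and Zap70, the phospholipase Plcg1 and several brakes of the pathway were more abundant after co-culture. The adaptors Lat and Lcp2, the NF-kB feedback gene Nfkbia, the surface genes Cd28 and Cd2 and the brakes Cd5 and Dusp6 were less abundant. Of the 48 members, 26 were higher in co-cultured CD8 T cells than in those cultured alone, 12 were lower and 10 did not pass. Over all 15948 genes tested, 60.9% were called, 30.2% higher and 30.7% lower, so a called gene was common in this comparison. The median log2 change was 0.26 over the members and -0.01 over all genes. By at least 1 on the log2 scale, 6 members were higher (Txk, Plcg1, Nfatc3, Malt1, Tnfaip3 and Ubash3b) and 1 lower (Dusp6), where 9.61% of all genes were that much higher and 10.7% that much lower.

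Of the 4 proximal kinases, 3 rose in CD8 T cells and Lck did not pass. Txk, a Tec family kinase of T cells on chromosome 5 (72695978 to 72752992), stood at 441 and 408 CPM in co-cultured CD8 T cells, against 58.7 and 74.1 CPM in those cultured alone. Both co-cultured libraries were several-fold above both libraries cultured alone, and this was the largest change of any member in these cells (log2 change 2.59, SE 0.105, edgeR adjusted p = 1.6e-09). Zap70 had 204 and 196 CPM co-cultured, against 110 and 128 CPM alone (log2 change 0.67, SE 0.083). Lck, the kinase that starts the cascade, had 1224 and 1099 CPM in co-cultured CD8 T cells, against 990 and 1017 CPM in those cultured alone. The 2 groups did not overlap, but the log2 change of 0.13 (SE 0.073) missed the threshold (edgeR adjusted p = 0.14). Reads of Lck can include those of the microRNA gene Mir8119, which overlaps its exons. Fyn, another Src family kinase, had a log2 change of 0.20 (edgeR adjusted p = 0.023), a call that was lost without co-cultured library 1 (adjusted p = 0.095), without co-cultured library 2 (0.10), without library 1 of the cells cultured alone (0.073) and in the fit of all 8 libraries (0.082).

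The 5 adaptors went both ways in CD8 T cells, with 2 higher, 2 lower and 1 that did not pass. Lat, the membrane scaffold of the pathway on chromosome 7 (126363827 to 126369705), had 163 and 163 CPM co-cultured, against 257 and 278 CPM alone. It fell by 0.80 on the log2 scale (SE 0.072, edgeR adjusted p = 9.7e-07), and its exons overlap the microRNA gene Mir7058. Lcp2, a cytosolic adaptor that LAT brings together with phospholipase C, had 381 and 373 CPM co-cultured, against 604 and 617 CPM alone, and fell by 0.78 (SE 0.067). The other 2 that changed were higher: Grb2, the adaptor that carries Sos1, had 183 and 193 CPM co-cultured, against 139 and 148 CPM alone (log2 change 0.31, SE 0.073), and Sh2d2a, a T cell specific adaptor, had a log2 change of 0.29. Grap2, a relative of Grb2, had 35.4 and 37.2 CPM co-cultured, against 39.0 and 37.3 CPM alone, with a log2 change of -0.15 that did not pass (edgeR adjusted p = 0.13).

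Among the phospholipase and the exchange factors, 3 of 4 rose and Sos1 did not pass. Plcg1, which encodes phospholipase C gamma and lies on chromosome 2 (160731310 to 160775760), had 145 and 162 CPM in co-cultured CD8 T cells, against 54.5 and 60.8 CPM in those cultured alone. Every co-cultured value was more than 2-fold above every value alone (log2 change 1.33, SE 0.086, edgeR adjusted p = 6.0e-08). Plcg1 shares exon positions with Zhx3 on the opposite strand, and since the strand setting of the counts is not given in the sources used here, reads of the 2 genes cannot be told apart. Rasgrp1, the Ras exchange factor that diacylglycerol recruits, rose by 0.94 (SE 0.071), and Vav1, a guanine nucleotide exchange factor, by 0.35 (SE 0.075). Sos1 had 12.3 and 13.1 CPM co-cultured, against 10.6 and 9.85 CPM alone (log2 change 0.24, SE 0.122, edgeR adjusted p = 0.11).

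In the NFAT branch, 2 of 5 members rose, 1 fell and 2 did not pass. Nfatc3, a calcium-driven transcription factor, had 120 and 133 CPM co-cultured, against 52.5 and 53.6 CPM alone (log2 change 1.18, SE 0.079, edgeR adjusted p = 8.2e-08). Its exons overlap Esrp2 on the opposite strand. Nfatc2 had 16.6 and 20.7 CPM co-cultured, against 19.1 and 17.2 CPM alone, so the groups overlapped (log2 change -0.04, edgeR adjusted p = 0.79). Ppp3cb, a catalytic subunit of calcineurin, was lower at 24.5 and 27.2 CPM co-cultured, against 33.0 and 30.6 CPM alone (log2 change -0.38, SE 0.094), while the other catalytic subunit, Ppp3ca, did not pass (0.13). Nfatc1 had a log2 change of 0.27 (edgeR adjusted p = 0.023), which became 0.14 without library 1 of the cells cultured alone (adjusted p = 0.15) and 0.41 without library 2 of those cells. It also lost its call without co-cultured library 2 (adjusted p = 0.15), without a low-count filter (0.058) and in the fit of all 8 libraries (0.092).

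The NF-kB branch went both ways in CD8 T cells. Of 8 members, 4 rose, 3 fell and Bcl10 did not pass. Malt1, a protease that works with BCL10, had 173 and 171 CPM co-cultured, against 71.8 and 82.5 CPM alone (log2 change 1.08, SE 0.083, edgeR adjusted p = 2.3e-07). Prkcq, the gene of protein kinase C theta, rose by 0.74 (SE 0.069). Bcl10 stood at 116 and 117 CPM co-cultured, against 104 and 106 CPM alone (log2 change 0.07, edgeR adjusted p = 0.40). Of the 5 subunit genes, Rela (0.37) and Relb (0.44) rose and Nfkb2 (-0.69), Nfkb1 (-0.29) and Rel (-0.23) fell. Nfkb2, whose product pairs with RELB, had 108 and 121 CPM co-cultured, against 166 and 181 CPM alone (SE 0.082, edgeR adjusted p = 1.0e-05), and overlaps Psd on the opposite strand. The small changes of Nfkb1 and Rel were less stable. Nfkb1 had an adjusted p of 0.0503 without co-cultured library 2, and Rel lost its call when any of the 4 libraries was left out (adjusted p from 0.061 to 0.12) and in the fit of all 8 libraries (0.13).

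The 3 inhibitors of NF-kB also went different ways. Tnfaip3, which encodes a ubiquitin-editing enzyme that shuts NF-kB down and is itself an NF-kB target, had 423 and 422 CPM in co-cultured CD8 T cells, against 126 and 160 CPM in those cultured alone. This was the second largest rise among the members (log2 change 1.48, SE 0.10, edgeR adjusted p = 8.3e-08). Nfkbia, the gene of the inhibitor I kappa B alpha, had 169 and 175 CPM co-cultured, against 242 and 226 CPM alone, and fell by 0.52 (SE 0.070). Nfkbid, a nuclear I kappa B protein, had 56.5 and 56.8 CPM co-cultured, against 41.3 and 45.3 CPM alone (log2 change 0.31, SE 0.082), with an adjusted p of 0.052 when library 1 of the cells cultured alone was left out.

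The 14 negative regulators gave 7 rises, 3 falls and 4 genes below the threshold in CD8 T cells. Ubash3b, a phosphatase that acts on ZAP70 and lies on chromosome 9 (41010760 to 41161692), had 335 and 347 CPM co-cultured, against 116 and 152 CPM alone (log2 change 1.27, SE 0.108, edgeR adjusted p = 5.2e-07). Its relative Ubash3a had 115 and 118 CPM co-cultured, against 107 and 108 CPM alone, the smallest change of the group (0.03). The phosphatase Ptpn22 (0.90), the diacylglycerol kinases Dgka (0.86) and Dgkz (0.62), the LCK-inhibiting kinase Csk (0.78) and the ubiquitin ligases Cbl (0.46) and Cblb (0.35) rose as well. Dgka overlaps Pmel on the opposite strand. Dusp6, a phosphatase of the MAP kinase ERK, had 25.9 and 26.3 CPM co-cultured, against 54.4 and 70.2 CPM alone, the largest fall among the 48 members in these cells (log2 change -1.34, SE 0.112, edgeR adjusted p = 4.8e-07). Cd5, a surface molecule that dampens receptor signals, fell by 0.38 (SE 0.074). Dusp4 was called lower (-0.21, edgeR adjusted p = 0.049), a call that was lost in 8 of 10 alternatives. These were DESeq2 (adjusted p = 0.072), RLE scaling (0.055), limma-voom (0.051), the fit without a low-count filter (0.068), the fit of all 8 libraries (0.094), and the fits without library 2 of the cells cultured alone (log2 change -0.14, adjusted p = 0.29), without co-cultured library 1 (0.23) and without co-cultured library 2 (0.063). Ptpn6 (-0.16), Ptpn2 (-0.05) and Dusp2 (0.06) did not pass, though Ptpn6 was called lower without library 1 of the cells cultured alone (adjusted p = 0.0014) and Dusp2 higher without library 2 (0.036).

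All 5 surface genes were called in CD8 T cells, 3 higher and 2 lower. Ptprc, the gene of CD45, the phosphatase that activates LCK, had 1808 and 1669 CPM co-cultured, against 996 and 1057 CPM alone (log2 change 0.68, SE 0.073, edgeR adjusted p = 4.0e-06). Cd28, the main costimulatory receptor of T cells, had 341 and 370 CPM co-cultured, against 504 and 544 CPM alone, and fell by 0.64 (SE 0.076, edgeR adjusted p = 9.5e-06). Icos, its inducible relative, had 119 and 129 CPM co-cultured, against 95.5 and 101 CPM alone (log2 change 0.26, SE 0.076), and lost its call without co-cultured library 2 (adjusted p = 0.11). The adhesion receptor Cd2 fell by 0.59, and Cd6, a relative of Cd5, rose by 0.41.

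**Figure D1:**
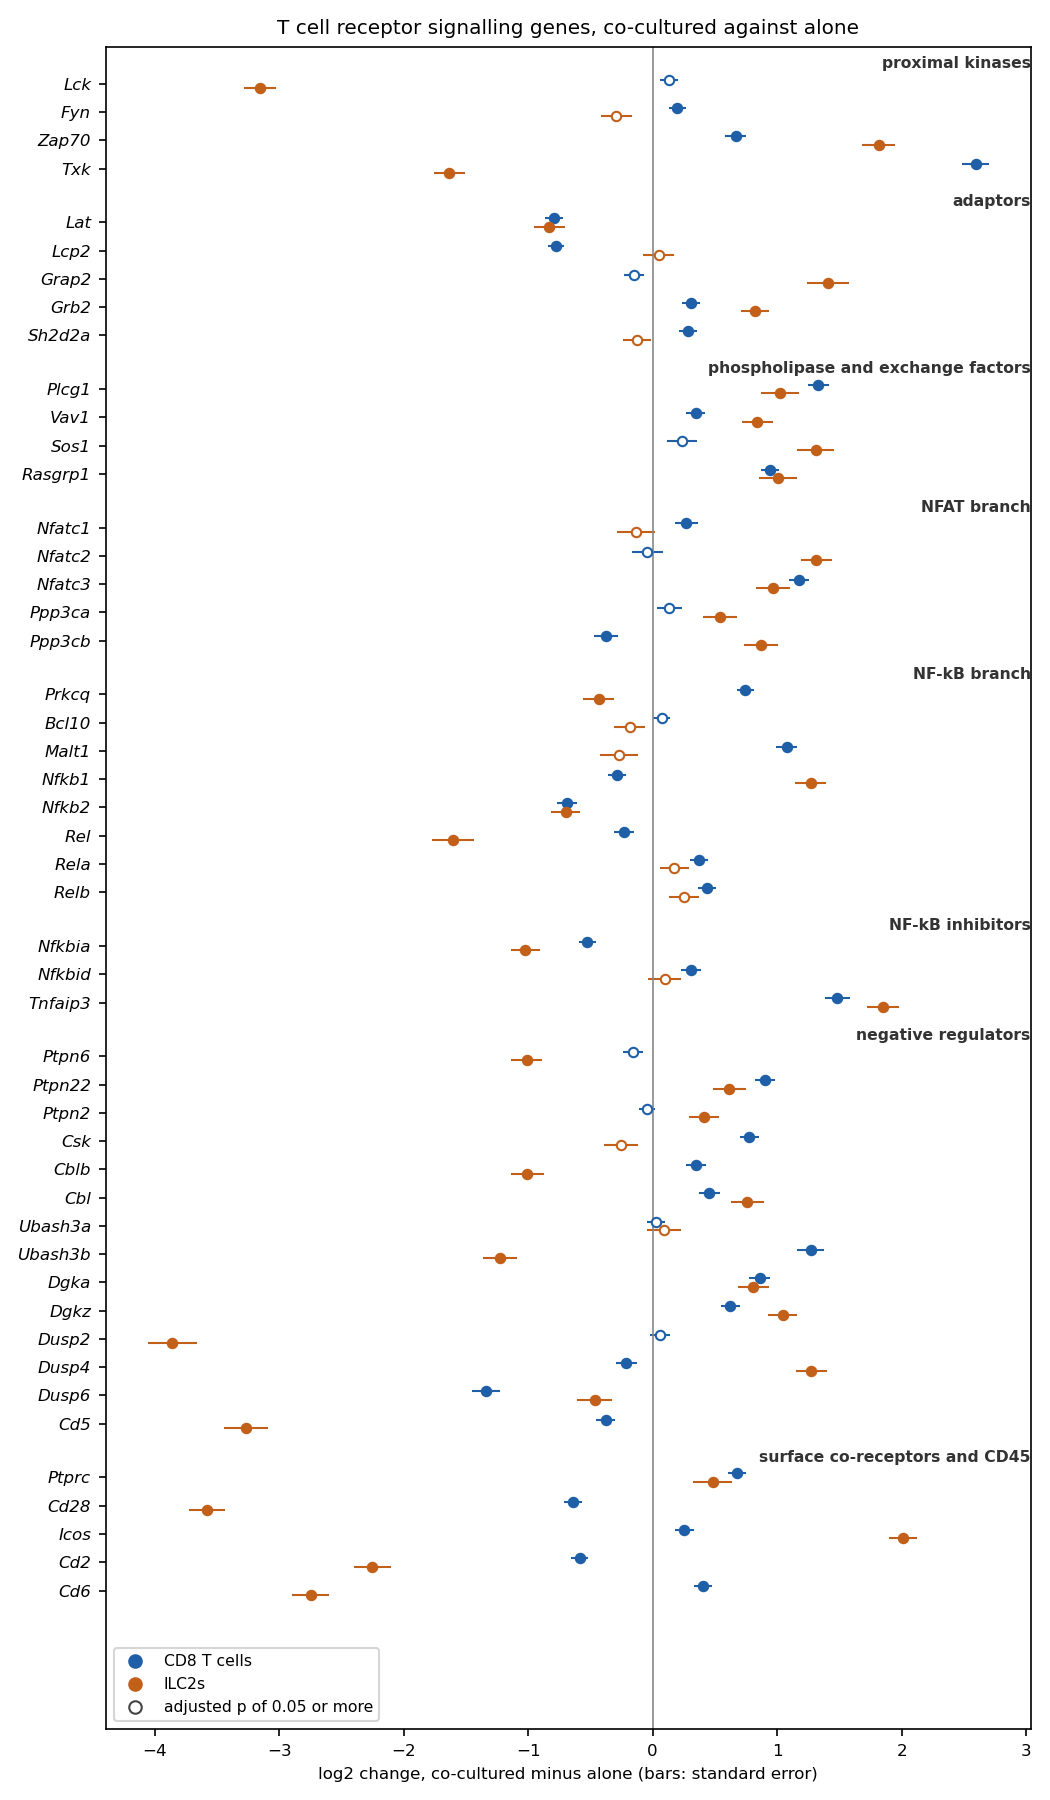
Log2 change of each of the 48 genes between co-cultured cells and cells cultured alone (x axis; bars are the standard error), for CD8 T cells in blue and ILC2s in orange, with open circles for an edgeR adjusted p of 0.05 or more. In CD8 T cells Txk stands farthest to the right at 2.59 and Dusp6 farthest to the left at -1.34; in ILC2s the values run from -3.86 (Dusp2) to 2.01 (Icos), on the TMM scale, and of the 21 rises 18 were no longer called higher when libraries were scaled to ILC2 marker genes.

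In ILC2s, genes that T cells use close to the receptor (Lck, Txk, Cd28, Cd5, Cd6, Cd2) were far lower in co-cultured libraries than in those labelled alone, and genes of the calcium and NFAT branch, the exchange factors, Icos, Zap70 and Tnfaip3 were higher. Of the 48 members, 21 were higher, 16 lower and 11 did not pass, where 66.3% of 16739 genes were called, 31.8% higher and 34.4% lower. The median log2 change was 0.09 over the members and -0.01 over all genes. By at least 1 on the log2 scale 11 members were higher and 12 lower, while 17.6% of all genes were that much higher and 22.7% that much lower. Changes are relative to the bulk of genes: scaling the libraries to ILC2 marker genes instead moved the median of all genes to -1.49, and then 3 members were called higher (Icos at 0.53, Tnfaip3 at 0.36 and Zap70 at 0.33) and 40 lower. Rises of members in ILC2s reported below are on the TMM scale, and all but those of these 3 members were lost or turned into falls under the marker scaling. That scaling holds the mean log level of the markers equal in all libraries, so a rise shared with them is taken out. On the TMM scale 17 of the 18 listed markers were called higher, among them the cytokine genes Il5 (2.40) and Il13 (2.62). Which scaling lies nearer the change within ILC2s was not tested.

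T cell marker genes were lower in the same ILC2 comparison as the members that fell. Expressed as a percentage of the CD8 T cell level in the same culture, the 10 T cell receptor and coreceptor genes had a median of 3.43% in co-cultured ILC2s (range 0.675% to 23.6%), against 33.2% in ILC2s labelled alone. Cd8a, which ILC2s are not known to express, had 6.09 and 6.76 CPM in co-cultured ILC2s, against 249 and 258 CPM in ILC2s labelled alone. The 12 members that were lower by at least 1 had a median of 5.05% in co-cultured ILC2s (1.36% to 111%), against 42.6% in ILC2s labelled alone (12.4% to 192%). The 11 members that were higher by at least 1 had a median of 207% co-cultured, against 86.3% labelled alone. These members were grouped by their own change, so the medians only describe them. How far T cell RNA in the libraries labelled alone contributes to the falls was not tested.

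**Figure D2:**
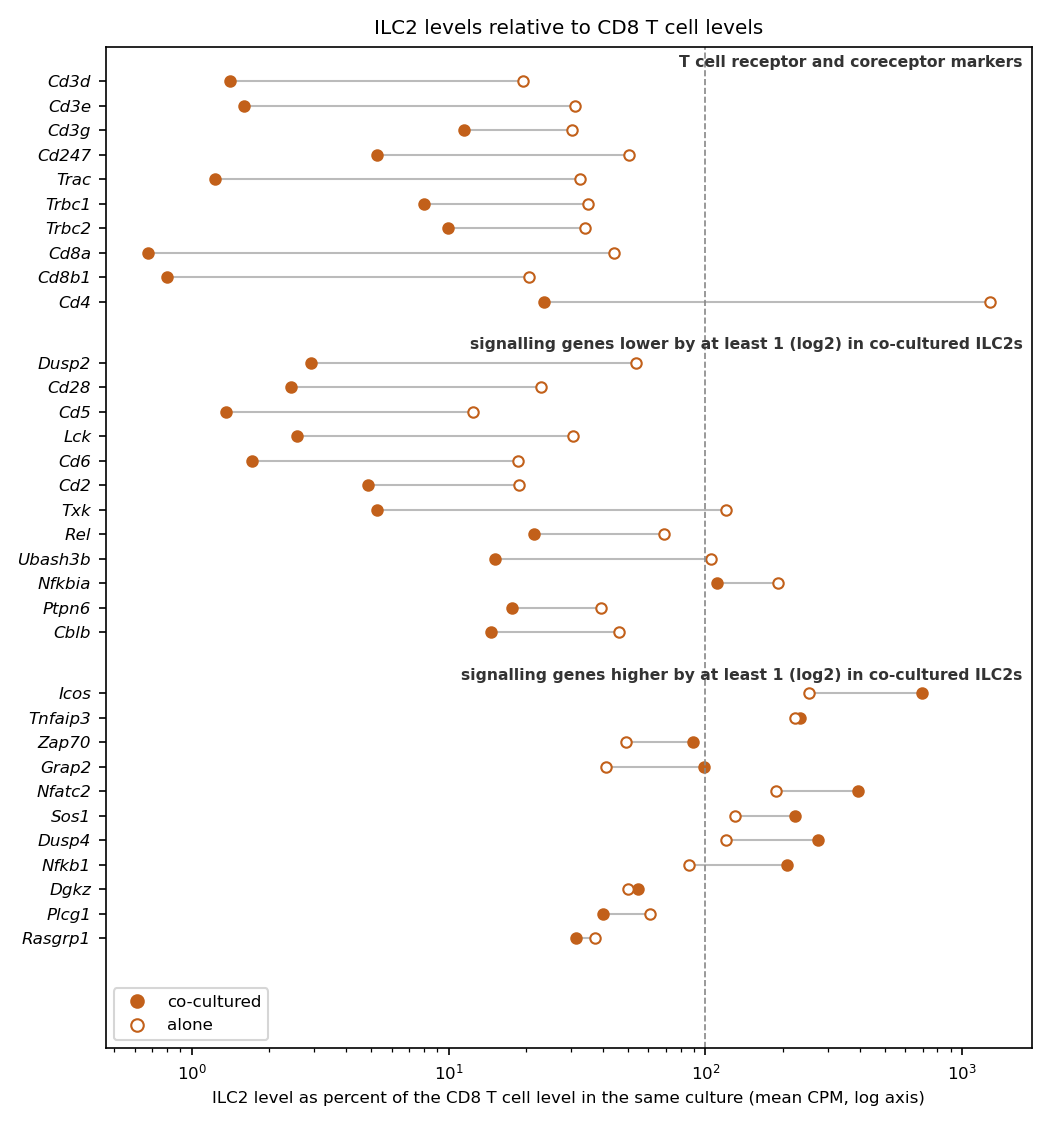
Mean CPM in ILC2s as a percentage of the mean CPM in CD8 T cells of the same culture (x axis, log scale), filled for co-cultured cells and open for cells cultured alone, for 10 T cell marker genes, 12 signalling genes lower and 11 higher by at least 1 (log2, TMM scale) in co-cultured ILC2s. Cd8a and Lck lie at 0.675% and 2.57% co-cultured, against 44.1% and 30.6% alone; Icos lies at 695% co-cultured and 252% alone.

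Of the proximal kinases in ILC2s, Zap70 rose, Lck and Txk fell and Fyn did not pass. Lck had 27.7 and 31.9 CPM in co-cultured ILC2s, against 308 and 307 CPM in those labelled alone (log2 change -3.15, SE 0.126, edgeR adjusted p = 2.2e-09). Txk had 21.8 and 22.8 CPM co-cultured, against 82.1 and 78.2 CPM labelled alone, and fell by 1.63 (SE 0.124), opposite to its direction in CD8 T cells. Its level in ILC2s labelled alone was 121% of that in CD8 T cells cultured alone. By the same measure 9 of the 10 T cell markers stood at 19.6% to 50.5% and Cd4 at 1281%. Which cells supplied the Txk reads was not tested. Zap70 had 160 and 197 CPM co-cultured, against 63.2 and 54.1 CPM labelled alone (log2 change 1.82, SE 0.135, edgeR adjusted p = 3.5e-07). Zap70 therefore moved opposite to the T cell markers, and the call stood under scaling to ILC2 marker genes (0.33, SE 0.13, edgeR adjusted p = 0.034). Fyn had 138 and 126 CPM co-cultured, against 198 and 177 CPM labelled alone (log2 change -0.29, edgeR adjusted p = 0.057), and was called lower without co-cultured library 1 (-0.43, adjusted p = 0.013), with limma-voom (0.046) and in the fit of all 8 libraries (-0.45, adjusted p = 0.00059).

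Among the adaptors in ILC2s, Grap2 and Grb2 rose and Lat fell, Grap2 and Grb2 being below 0 and no longer higher when scaled to ILC2 marker genes (-0.072 and -0.66). Grap2 had 34.0 and 37.4 CPM co-cultured, against 18.3 and 12.8 CPM labelled alone (log2 change 1.41, SE 0.168, edgeR adjusted p = 1.7e-05). Lat had 23.8 and 28.1 CPM co-cultured, against 54.2 and 52.6 CPM labelled alone (-0.83, SE 0.128). In co-cultured ILC2s Lat stood at 15.9% of its level in co-cultured CD8 T cells. The T cell markers there had a median of 3.43% and ranged from 0.675% to 23.6%. Which cells supplied the Lat reads was not tested. Lcp2 had 278 and 251 CPM co-cultured, against 311 and 283 CPM labelled alone, close to each other and with a log2 change of 0.05 (edgeR adjusted p = 0.74). Sh2d2a did not pass (-0.13), but was called lower in the fit of all 8 libraries (-0.28, adjusted p = 0.010).

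The phospholipase and all 3 exchange factors rose in ILC2s on the TMM scale, and all 4 were below 0 by the marker scaling (-0.17 to -0.64). Sos1, the largest, had 30.3 and 26.6 CPM in co-cultured ILC2s, against 12.7 and 14.0 CPM in those labelled alone (log2 change 1.31, SE 0.15, edgeR adjusted p = 1.3e-05). Vav1 rose least, at 221 and 205 CPM co-cultured, against 149 and 127 CPM labelled alone (0.84, SE 0.127). Plcg1 (1.02, SE 0.151) and Rasgrp1 (1.01, SE 0.153) lay between.

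In the NFAT branch 4 of 5 members rose in ILC2s on the TMM scale, and each of those 4 was below 0 by the marker scaling (-0.17 to -0.94). Nfatc2, on chromosome 2 (168476410 to 168601657), had 71.7 and 74.8 CPM co-cultured, against 32.7 and 35.5 CPM labelled alone (log2 change 1.32, SE 0.124, edgeR adjusted p = 2.6e-06). Both calcineurin subunits rose with it, Ppp3cb by 0.87 (SE 0.136) and Ppp3ca by 0.54 (SE 0.134), as did Nfatc3 by 0.97 (SE 0.136). Nfatc1 was the exception, at 96.2 and 72.3 CPM co-cultured, against 107 and 108 CPM labelled alone (log2 change -0.13, edgeR adjusted p = 0.47). Its co-cultured libraries differed, and it was called lower without library 1 of them (log2 change -0.43, adjusted p = 0.012).

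The NF-kB branch gave 1 rise, 3 falls and 4 genes that did not pass in ILC2s. Nfkb1 had 182 and 217 CPM in co-cultured ILC2s, against 98.1 and 93.6 CPM in those labelled alone (log2 change 1.27, SE 0.121, edgeR adjusted p = 2.8e-06, and -0.21 by the marker scaling). Rel, the subunit most typical of lymphocytes, had 8.85 and 7.01 CPM co-cultured, against 28.5 and 27.6 CPM labelled alone, and fell by 1.60 (SE 0.165, edgeR adjusted p = 5.2e-06). Nfkb2 fell by 0.70 (SE 0.118) and Prkcq by 0.43 (SE 0.125), the call of Prkcq being lost without library 1 of those labelled alone (adjusted p = 0.10). Rela had 186 and 186 CPM co-cultured, against 182 and 200 CPM labelled alone, with overlapping groups (0.18, edgeR adjusted p = 0.21). Relb (0.25), Bcl10 (-0.18) and Malt1 (-0.27) did not pass, but Malt1 was called lower without co-cultured library 1 (-0.54, adjusted p = 0.0036). In the fit of all 8 libraries Malt1 and Bcl10 were called lower (-0.42 and -0.34, adjusted p = 0.0071 and 0.0064), and with DESeq2 Relb was called higher (0.29, adjusted p = 0.044).

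Of the NF-kB inhibitors in ILC2s, Tnfaip3 rose, Nfkbia fell and Nfkbid did not pass. Tnfaip3 stood at 1052 and 925 CPM in co-cultured ILC2s, against 336 and 302 CPM in ILC2s labelled alone. It rose by 1.85 on the log2 scale (SE 0.129, edgeR adjusted p = 2.1e-07) and by 0.36 (SE 0.117, edgeR adjusted p = 0.014) when scaled to ILC2 marker genes. Nfkbia had 173 and 209 CPM co-cultured, against 449 and 449 CPM labelled alone, and fell by 1.02 (SE 0.119, edgeR adjusted p = 1.4e-05). In libraries labelled alone its ILC2 level was 192% of that in CD8 T cells, and which cells supplied it was not tested. Nfkbid had 20.5 and 22.6 CPM co-cultured, against 23.6 and 23.1 CPM labelled alone (0.10, edgeR adjusted p = 0.53).

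The 14 negative regulators split evenly in ILC2s, with 6 higher on the TMM scale, 6 lower and 2 that did not pass. Dusp2, a nuclear MAP kinase phosphatase induced by receptor signals and located on chromosome 2 (127336159 to 127338377), had 7.39 and 12.5 CPM co-cultured, against 164 and 168 CPM labelled alone. That was the largest fall of any member (log2 change -3.86, SE 0.199, edgeR adjusted p = 1.8e-08). Cd5 had 2.97 and 2.48 CPM co-cultured, against 32.1 and 29.0 CPM labelled alone (-3.27, SE 0.174). Ubash3b (-1.23), Cblb (-1.01) and Ptpn6 (-1.01) fell too, and Dusp6 fell by 0.47, which became 0.29 without library 2 of those labelled alone (adjusted p = 0.14). In the other direction, Dusp4, another nuclear MAP kinase phosphatase, had 104 and 116 CPM co-cultured, against 55.2 and 50.0 CPM labelled alone (1.28, SE 0.122, edgeR adjusted p = 2.8e-06, and -0.21 by the marker scaling). Dgkz (1.05), Dgka (0.81), Cbl (0.76), Ptpn22 (0.61) and Ptpn2 (0.41) also rose on the TMM scale and lay between -0.44 and -1.07 by the marker scaling. Ptpn2 lost its call without library 2 of those labelled alone (adjusted p = 0.072) and without co-cultured library 1 (0.056). Ubash3a had 29.9 and 27.3 CPM co-cultured, against 33.3 and 29.0 CPM labelled alone, the smallest change (0.09, edgeR adjusted p = 0.57), and Csk did not pass (-0.25), but was called lower in the fit of all 8 libraries (-0.41, adjusted p = 0.0036).

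Of the 5 surface genes in ILC2s, Icos and Ptprc rose and Cd28, Cd6 and Cd2 fell. Icos, which also belongs to the ILC2 marker list and is a known survival receptor of these cells, had 852 and 871 CPM in co-cultured ILC2s, against 244 and 251 CPM in those labelled alone. It rose by 2.01 (SE 0.114, edgeR adjusted p = 3.9e-08), and by 0.53 (SE 0.103) on the scale of the other ILC2 markers. Its neighbour on chromosome 1, Cd28 (60746388 to 60773359, with Icos at 60960773 to 61000322), had 7.65 and 9.61 CPM co-cultured, against 115 and 124 CPM labelled alone (log2 change -3.58, SE 0.147, edgeR adjusted p = 2.8e-09). Cd6 fell by 2.75 (SE 0.149) and Cd2 by 2.25 (SE 0.148). Ptprc had 896 and 688 CPM co-cultured, against 723 and 598 CPM labelled alone, overlapping groups that differed by 0.48 on the log2 scale (SE 0.155, edgeR adjusted p = 0.017). The Ptprc call was lost without co-cultured library 1 (0.21, adjusted p = 0.23), without library 2 of those labelled alone (adjusted p = 0.0502), without a low-count filter (0.052) and under the marker scaling, which gave -1.004.

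**Figure D3:**
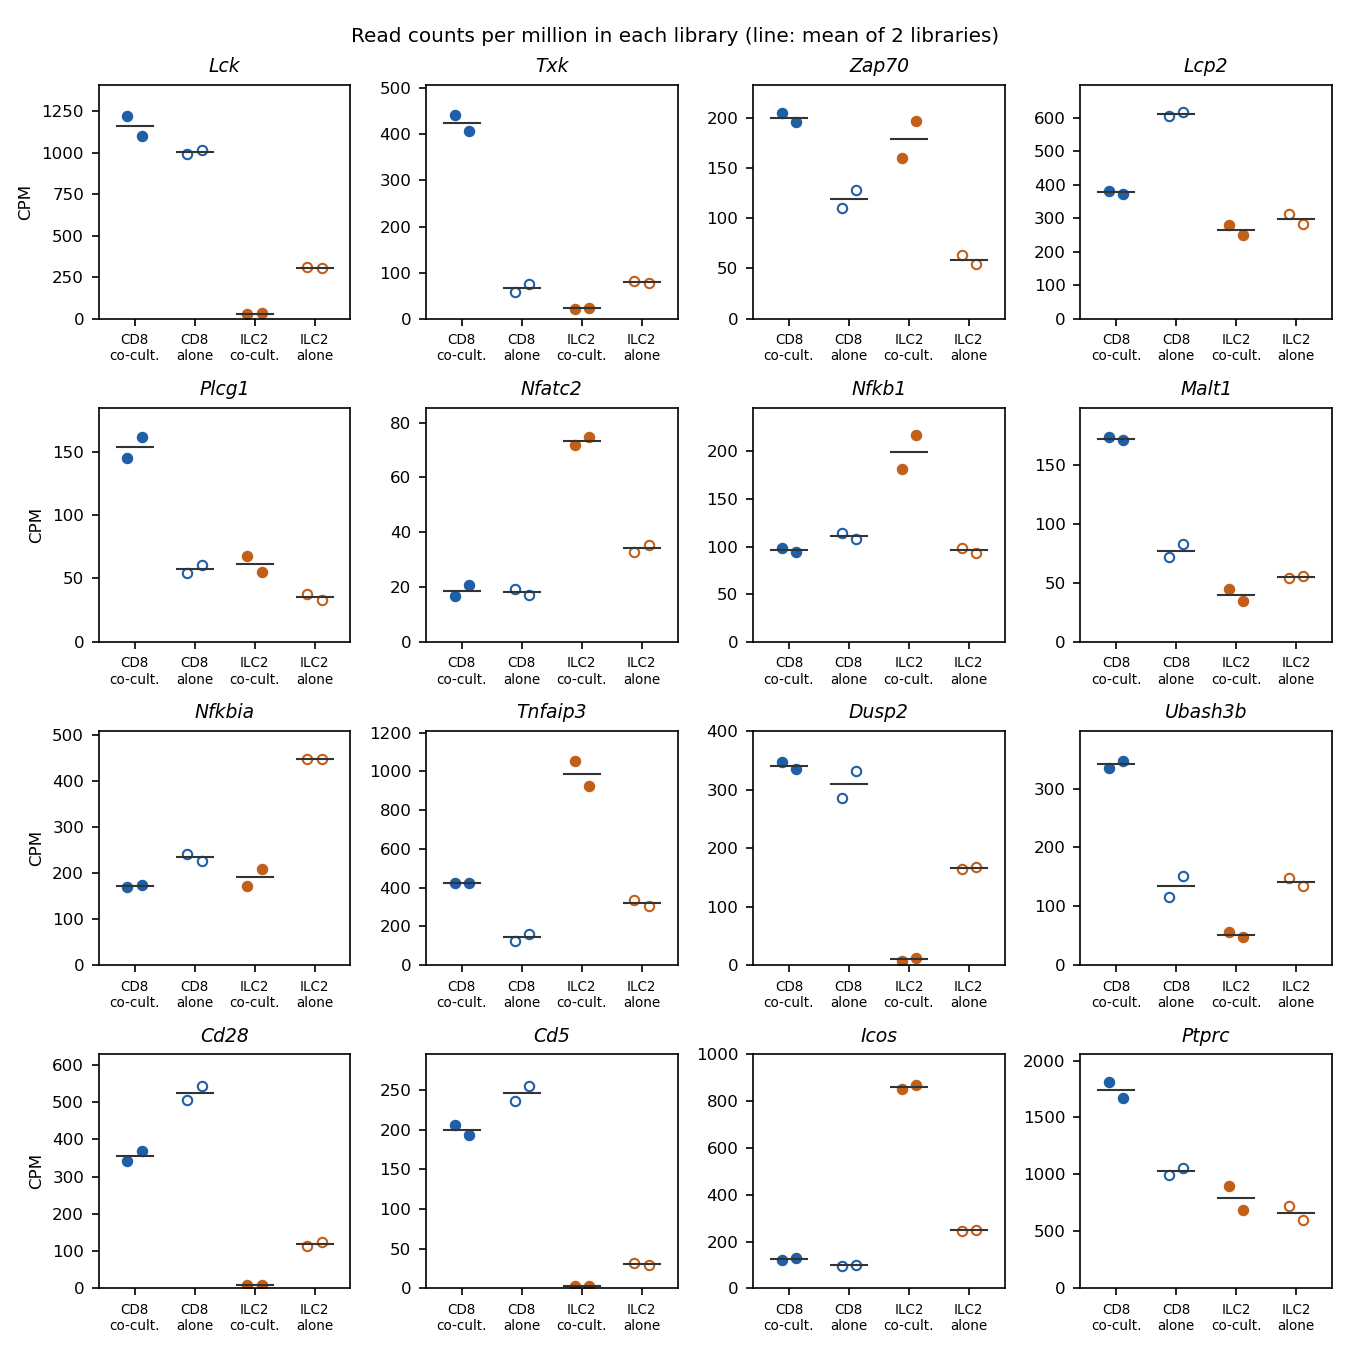
CPM in each library (points) with the mean of 2 libraries (line) for 16 members, with co-cultured CD8 T cells, CD8 T cells alone, co-cultured ILC2s and ILC2s alone from left to right; each panel has its own axis from 0. Txk reaches 441 and 408 CPM in co-cultured CD8 T cells and no more than 82.1 CPM in any other library, and Icos reaches 852 and 871 CPM in co-cultured ILC2s and no more than 251 CPM elsewhere.

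Setting both cell types side by side, 13 members were higher in both (27.1% of the members, against 16.9% of 14835 genes tested in both) and 8 were lower in both (16.7%, against 17.8% of genes). Those higher in both were Zap70, Grb2, Plcg1, Vav1, Rasgrp1, Nfatc3, Tnfaip3, Ptpn22, Cbl, Dgka, Dgkz, Ptprc and Icos. Those lower in both were Lat, Nfkb2, Rel, Nfkbia, Dusp6, Cd5, Cd28 and Cd2. Opposite calls were made for 5 members that were higher in CD8 T cells and lower in ILC2s (Txk, Prkcq, Cblb, Ubash3b and Cd6), or 10.4% against 6.33% of genes. A further 3 were lower in CD8 T cells and higher in ILC2s (Ppp3cb, Nfkb1 and Dusp4), or 6.25% against 4.54% of genes. The CD8 call of Dusp4 was lost in 8 of 10 alternatives, and by the marker scaling the ILC2 values of Ppp3cb, Nfkb1 and Dusp4 were below 0 (-0.61, -0.21 and -0.21). Bcl10 and Ubash3a were called in neither. The shared rises hold on the TMM scale, since by the marker scaling of ILC2s 10 of the 13 were not higher there.

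The difference between the responses, the ILC2 change minus the CD8 T cell change, was tested with an interaction term in a joint fit of 8 libraries. It was called for 35 of the 48 members, 11 higher and 24 lower, where 53.6% of 15532 genes were called, 21.0% higher and 32.6% lower. The median difference was -0.36 over the members and -0.12 over all genes. With RLE scaling, which brought the median of all genes to 0.00, 14 members were higher and 17 lower. By at least 1 on the log2 scale 6 members were higher and 14 lower, against 11.0% and 19.5% of all genes. Txk differed most (-4.39, SE 0.163, edgeR adjusted p = 4.3e-12), the kinase having risen in co-cultured CD8 T cells and fallen in co-cultured ILC2s. Dusp2 (-4.08), Lck (-3.44), Cd6 (-3.31), Cd28 (-3.10) and Cd5 (-3.05) followed, and each of them was called lower in co-cultured ILC2s. Higher in the ILC2 response were Icos (1.60), Grap2 (1.40), Nfkb1 (1.40), Dusp4 (1.33), Nfatc2 (1.20) and Ppp3cb (1.08). In the NF-kB branch 6 of 8 members were lower in the ILC2 response and Nfkb1 was higher, but with RLE scaling or DESeq2 only Prkcq, Malt1 and Rel were still called lower. Tnfaip3, with rises of 1.85 in ILC2s and 1.48 in CD8 T cells, showed no difference that passed (0.21, SE 0.165, edgeR adjusted p = 0.31), and neither did Rasgrp1, Dgka, Cbl or Lat. Of the 35 calls, 26 held in each of the 12 other fits run for this comparison, and 9 were lost in at least 1. Scaling to ILC2 marker genes was not among these 12 fits. By that scaling the ILC2 changes of Grap2, Nfkb1, Dusp4, Nfatc2 and Ppp3cb were below 0, and how their differences stand under it was not tested. RLE scaling and DESeq2 each ended the calls of Plcg1, Nfatc1, Bcl10, Rela, Relb, Nfkbid and Ptpn22 (adjusted p from 0.072 for Nfatc1 to 0.19 for Relb with RLE scaling). Leaving out a library ended the calls of Nfkbid and Relb in 6 of 8 cases each (adjusted p up to 0.18 for Nfkbid and 0.14 for Relb), and those of Grb2 and Rela in 5 of 8 (up to 0.14 for Grb2 and 0.16 for Rela). The calls of Plcg1 (adjusted p 0.11 to 0.13), Ptpn22 (0.052 to 0.092) and Bcl10 (0.057 to 0.081) ended in 4 of 8 cases each. Each of these 7 genes lost its call without co-cultured CD8 library 2 or without library 1 of the CD8 T cells alone, and without at least 1 ILC2 library. Nfatc1 lost its call in 3 of these 8 cases, its difference of -0.56 becoming -0.84 without co-cultured ILC2 library 1 and -0.35 without co-cultured ILC2 library 2. Plcg1 moved to -0.31 without that second library, and Dusp6 lost its call without library 2 of the CD8 T cells alone (adjusted p = 0.057). Dgkz, Vav1 and Ptpn2 did not pass, but were called higher in the ILC2 response with RLE scaling (adjusted p = 0.024, 0.016 and 0.014) and with DESeq2. Leaving out a library also brought calls for Vav1 (without co-cultured ILC2 library 2 or library 1 of the ILC2s labelled alone, adjusted p = 0.027 and 0.032) and for Ptpn2 (without co-cultured ILC2 library 2, 0.031). Nfatc3 and Ptprc were called lower without co-cultured ILC2 library 1 (adjusted p = 0.0043 and 0.0034), and Ptprc without library 2 of the ILC2s labelled alone (0.045).

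After co-culture, the pathway was present in ILC2s at very unequal levels relative to CD8 T cells. Of the 48 members, 11 were higher in co-cultured ILC2s than in co-cultured CD8 T cells, 29 were lower and 8 did not pass, while 69.4% of 15532 genes were called, 32.9% higher and 36.5% lower. The median log2 difference was -0.92 over the members and -0.04 over all genes. By at least 1 on the log2 scale 8 members were higher and 23 lower, against 18.3% and 19.4% of all genes. Cd5 (-6.03, SE 0.136), Cd6 (-5.71), Cd28 (-5.20), Lck (-5.12) and Dusp2 (-4.94) were the lowest in ILC2s. These genes stood at 1.36% (Cd5) to 2.92% (Dusp2) of their mean CPM in co-cultured CD8 T cells. The T cell markers had a median of 3.43% by the same measure, and which cells supplied these reads was not tested. Zap70 was at 160 and 197 CPM in co-cultured ILC2s, against 204 and 196 CPM in co-cultured CD8 T cells, a difference of -0.00 on the log2 scale (SE 0.11, edgeR adjusted p = 0.99). Vav1 was likewise close, at 221 and 205 CPM in ILC2s, against 232 and 247 CPM in CD8 T cells (-0.01, SE 0.101). The signs of these 2 differences turned under other scalings, DESeq2 and RLE each giving 0.039 for Zap70 and 0.037 for Vav1.

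By role, none of the 4 kinases, 1 of 5 adaptors (Grb2, 0.64) and 1 of the 4 phospholipase and exchange factor genes (Sos1, 1.33) were higher in co-cultured ILC2s. Of the NFAT branch, 3 of 5 were higher: Nfatc2 at 71.7 and 74.8 CPM in ILC2s, against 16.6 and 20.7 CPM in CD8 T cells (2.14, SE 0.124, edgeR adjusted p = 2.5e-10), Ppp3ca (1.78, SE 0.118) and Ppp3cb (0.41). The isoform order was opposite for Nfatc1, at 96.2 and 72.3 CPM in ILC2s, against 234 and 260 CPM in CD8 T cells (-1.38, SE 0.135). In the NF-kB branch Nfkb1 was higher (1.21, SE 0.096), Prkcq (-2.66), Rel (-2.05), Malt1 (-1.96) and Bcl10 (-0.42) were lower, and Nfkb2, Rela and Relb did not pass (-0.22 to -0.18). Tnfaip3 (1.39, SE 0.118) and Nfkbia (0.31) were higher and Nfkbid lower (-1.23). Of the 14 negative regulators 10 were lower, with Dusp6 (2.05, SE 0.141) and Dusp4 (1.62, SE 0.102) the 2 that were higher. Icos was the surface gene higher in ILC2s, at 852 and 871 CPM, against 119 and 129 CPM in CD8 T cells (2.96, SE 0.096, edgeR adjusted p = 2.0e-13). Of the 40 calls 37 held in each of the 12 other fits. Those that left out a library cultured alone bear on this comparison only through the shared filter, scaling and spread. Nfatc3, at -0.32, lost its call without co-cultured CD8 library 2 (adjusted p = 0.14) and co-cultured ILC2 library 2 (-0.19, adjusted p = 0.14), and was -0.50 without co-cultured ILC2 library 1. Calls also ended for Ppp3cb without co-cultured CD8 library 1 (0.072) and co-cultured ILC2 library 2 (0.059), and for Nfkbia without the same 2 libraries (0.075, and 0.092 with a difference of 0.20). Nfkb2 was called lower when either ILC2 library labelled alone was left out (adjusted p = 0.048 and 0.041) and without a low-count filter (0.049), and Relb without co-cultured ILC2 library 1 (0.037).

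**Figure D4:**
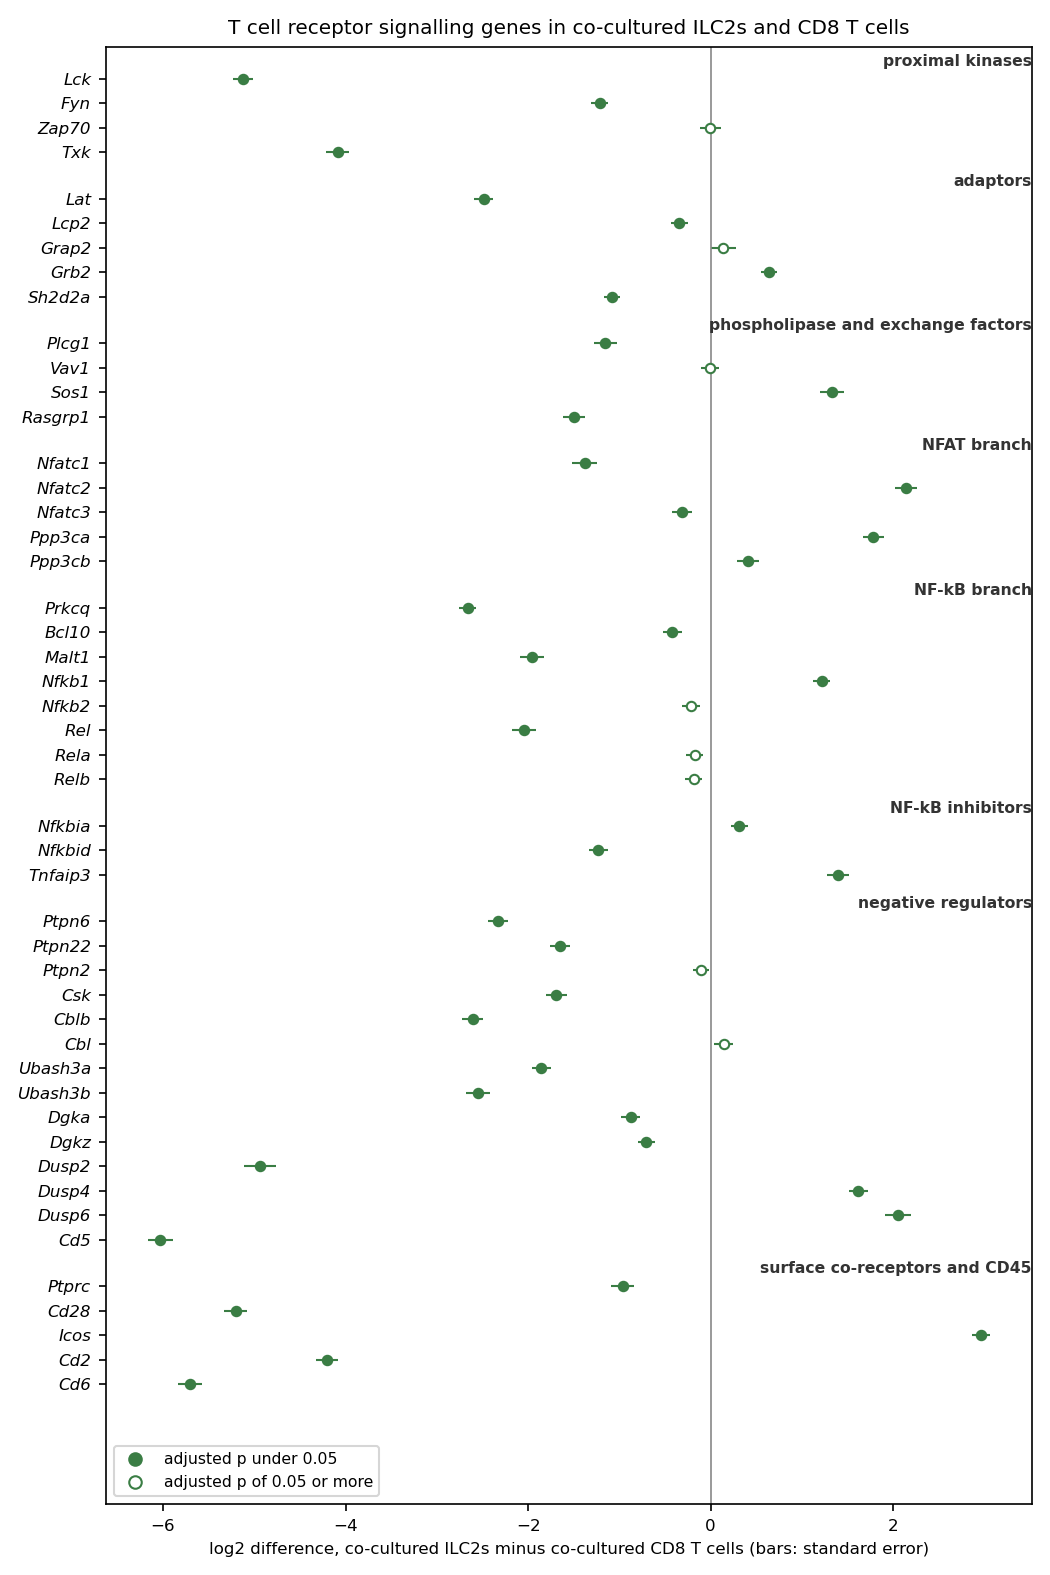
Log2 difference between co-cultured ILC2s and co-cultured CD8 T cells for each of the 48 genes (x axis; bars are the standard error), with open circles for an edgeR adjusted p of 0.05 or more. Values run from -6.03 for Cd5 to 2.96 for Icos, and Zap70 and Vav1 lie at -0.00 and -0.01, with signs that turn under RLE scaling.

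The rest of the pathway was followed with 76 further genes, of which 75 were tested in CD8 T cells (Btk was not analysed there) and 76 in ILC2s. Among those tested in CD8 T cells 39 were higher and 21 lower after co-culture, with 15 not called and a median of 0.29 on the log2 scale, where 30.2% of all genes were called higher and 30.7% lower. Of the IKK complex and NF-kB regulators 10 of 15 were higher and 3 lower, and of the Ras and MAP kinase genes 6 of 12 were higher and 6 lower. Among the largest rises were those of Bcl3 (1.39, SE 0.069), a nuclear partner of NF-kB subunits, at 364 and 374 CPM co-cultured, against 133 and 133 CPM alone, and of Nfkbiz (1.38, SE 0.104), Nck2 (1.35, SE 0.094) and Itch (1.17, SE 0.082). Among the largest falls were those of Sh2d1a (-1.48, SE 0.129), Tespa1 (-1.06, SE 0.096) and the calcium channel gene Orai1 (-0.92, SE 0.074).

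For ILC2s 33 of the 76 genes were higher on the TMM scale and 24 lower, 19 were not called, and the median was 0.14, where 31.8% of all genes were called higher and 34.4% lower. Itpkb, an inositol phosphate kinase, had 38.8 and 36.8 CPM in co-cultured ILC2s, against 4.20 and 7.25 CPM in those labelled alone (2.94, SE 0.224, edgeR adjusted p = 4.5e-07). The Tec family kinase Tec (2.29, SE 0.139), the ubiquitin ligase Rnf128 (2.14, SE 0.124) and the calcium sensor Stim1 (1.84, SE 0.121) rose as well on the TMM scale. Values of these further genes by the marker scaling are not reported here. Tec had 257 and 232 CPM co-cultured, against 63.4 and 53.1 CPM labelled alone, the reverse of its family member Txk. The feedback inhibitors Spry1 (-1.78, SE 0.144), Dusp10 (-1.45, SE 0.129) and Rcan1 (-1.34, SE 0.142) and the GTPase gene Hras (-1.13, SE 0.134) fell.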

How the data were processed

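Per the labels' protocols, Trizol was used to extract RNA and a SMART-Seq v4 kit for low input to build the libraries. The authors deposited read counts as whole numbers by gene symbol, 1 table of 17642 genes in CD8 T cells and 1 of 18389 genes in ILC2s, with 4 libraries in each. Since no value in them is 0, genes without a read in some library were not analysed. The submitters' processing notes list StringTie 2.1.3b, SAMtools 1.9, HISAT2 2.1.0, Trimmomatic 0.38 and the build mm10. The sources used here do not give what each tool did, the annotation, the strand setting or the handling of reads shared between genes. Counts of overlapping or near-identical genes are therefore uncertain.

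The tests used edgeR 4.0.16 under R 4.3.3, with filterByExpr, TMM factors and the quasi-likelihood F test. P-values were adjusted by the Benjamini-Hochberg method over every gene tested, 15948 in CD8 T cells and 16739 in ILC2s. The difference of the responses and that between co-cultured cell types came from a joint fit of 8 libraries over 15532 genes found in both tables. The standard error is the size of the log2 change divided by the square root of F. Residual degrees of freedom were 2 in each cell type and 4 in the joint fit, and the prior added 10.4, 9.23 and 11.5, so each p-value rests largely on the spread of other genes. Replicate libraries were not identical within counting error (chi-square per gene 12.5 to 25.9), and each was counted as a replicate. The scripts were tested on simulated data. Alternatives were DESeq2 1.42.0, limma-voom (limma 3.58.1, within cell types), RLE scaling, scaling of ILC2 libraries to ILC2 marker genes other than the members, no low-count filter, a replicate block, the joint fit, and leaving out each library. Positions and promoters are from RefSeq GRCm38.p6, the assembly of mm10, and exon lengths and overlaps from GENCODE vM21. Tables and plots were made with Python 3.11.15, pandas 2.3.3 and matplotlib 3.10.9.

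The 48 members, the 76 further pathway genes and the marker lists were chosen with earlier results of these data known. In each role and each cell type, library values are given for the called member with the largest rise, the called member with the largest fall and the member with the smallest change, and for some others where a result turns on them. Further pathway genes are the 5 largest called rises and falls with a mean of at least 10 CPM, some of which are not reported here. B cell markers summed to 72.5 and 73.5 CPM in co-cultured ILC2s, against 85.4 and 82.0 CPM in ILC2s labelled alone. NK cell markers summed to 1.34 and 1.64 CPM co-cultured, against 26.1 and 24.7 CPM labelled alone, and dendritic cell markers to 33.2 and 32.6 CPM co-cultured, against 47.7 and 55.5 CPM labelled alone.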

Additional observations from a re-analysis of the deposited data

Results flagged for a closer look

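For 35 of the 48 genes the change with co-culture differed between ILC2s and CD8 T cells in the interaction test over all 8 libraries (edgeR adjusted p under 0.05), where 53.6% of all genes did. The values are log2 differences, the ILC2 change minus the CD8 T cell change. Among the kinases they were -4.39 for Txk, -3.44 for Lck, -0.65 for Fyn and 0.99 for Zap70. Among the adaptors they were 1.40 for Grap2, 0.67 for Lcp2, 0.36 for Grb2 and -0.57 for Sh2d2a. For the phospholipase and exchange factors they were 0.91 for Sos1 and -0.47 for Plcg1. In the NFAT branch they were 1.20 for Nfatc2, 1.08 for Ppp3cb and -0.56 for Nfatc1. In the NF-kB branch they were 1.40 for Nfkb1, -1.54 for Rel, -1.50 for Malt1, -1.34 for Prkcq, -0.41 for Bcl10, -0.36 for Rela and -0.35 for Relb. Nfkbia had -0.66 and Nfkbid -0.37. The negative regulators gave -4.08 for Dusp2, -3.05 for Cd5, -2.66 for Ubash3b, -1.51 for Cblb, -1.19 for Csk, -1.01 for Ptpn6, -0.45 for Ptpn22, 0.71 for Dusp6 and 1.33 for Dusp4. The surface genes gave -3.31 for Cd6, -3.10 for Cd28, -1.82 for Cd2 and 1.60 for Icos. Over all genes the median of this difference was -0.12. With RLE scaling, which brought that median to 0.00, Plcg1, Nfatc1, Bcl10, Rela, Relb, Nfkbid and Ptpn22 were no longer called. Scaling to ILC2 marker genes was not run for this difference. T cell marker genes fell in the same ILC2 comparison, from which these differences draw, and the part of that fall in them was not tested.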

How the results depend on the processing

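With 2 libraries a group, calls near the threshold are weakly founded. The replicate numbers of the titles did not pair the libraries (deviations of same-numbered libraries correlated at -0.02 in CD8 T cells and 0.05 in ILC2s). With the replicate block the members called higher and lower were 26 and 12 in CD8 T cells, 21 and 17 in ILC2s, 13 and 26 in the difference of the responses, and 10 and 28 between the co-cultured cell types. In that last comparison the block ended the calls of Nfatc3 (adjusted p = 0.14) and Nfkbia (0.072). In the difference of the responses it brought calls for Vav1 (0.028), Ptpn2 (0.046), Nfatc3 (0.041) and Ptprc (0.035), and in ILC2s for Fyn (0.028). Leaving out a library gave 23 to 27 higher and 9 to 12 lower in CD8 T cells, and 19 to 21 higher and 15 to 19 lower in ILC2s. The fit of all 8 libraries gave 24 higher and 10 lower in CD8 T cells, and 21 higher and 21 lower in ILC2s. Of the calls in CD8 T cells 31 of 38, and in ILC2s 33 of 37, held in all 10 alternatives other than the marker scaling.

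Scaling the ILC2 libraries to ILC2 marker genes changed the ILC2 result most of the alternatives run: 553 genes were then higher and 13172 lower, and 3 members higher and 40 lower. The scaling holds the mean log level of the marker genes equal in all libraries, so a rise shared with them is taken out. Members that were above 0 on the TMM scale and fell below it were Cbl (-0.72), Dgka (-0.68), Dgkz (-0.44), Dusp4 (-0.21), Grap2 (-0.072), Grb2 (-0.66), Lcp2 (-1.44), Nfatc2 (-0.17), Nfatc3 (-0.52), Nfkb1 (-0.21), Nfkbid (-1.39), Plcg1 (-0.47), Ppp3ca (-0.94), Ppp3cb (-0.61), Ptpn2 (-1.07), Ptpn22 (-0.87), Ptprc (-1.004), Rasgrp1 (-0.48), Rela (-1.31), Relb (-1.23), Sos1 (-0.17), Ubash3a (-1.39) and Vav1 (-0.64).

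Other turns of sign were in small changes that had not passed. In CD8 T cells, leaving out a library gave -0.051 to 0.19 for Dusp2 and -0.20 to 0.11 for Nfatc2. In ILC2s it gave -0.099 to 0.16 for Lcp2, -0.43 to 0.090 for Nfatc1 and -0.044 to 0.19 for Ubash3a. The fit of all 8 libraries gave -0.11 for Lcp2, -0.058 for Nfkbid and -0.062 for Ubash3a in ILC2s. Between co-cultured cell types, DESeq2, RLE scaling and the replicate block gave 0.037, 0.037 and 0.14 for Vav1 and 0.039, 0.039 and 0.020 for Zap70, and leaving out a library gave -0.12 to 0.068 for Vav1 and -0.13 to 0.090 for Zap70. In the difference of the responses, DESeq2 and RLE scaling gave 0.027 and 0.026 for Rasgrp1 and 0.029 and 0.029 for Ubash3a. Leaving out a library gave -0.28 to 0.055 for Rasgrp1 and -0.0049 to 0.37 for Tnfaip3. The cause was not tested for any of these.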
